A study of Homo sapiens with 2 samples.

Results

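Neuroendocrine lineage regulators are the transcription and splicing factors that drive prostate adenocarcinoma cells towards a neuron-like, hormone-secreting state, together with the repressor that holds neuronal genes off in other tissues. The 9 genes INSM1, FOXA2, POU3F2, ONECUT2, SOX2, MYCN, SRRM4, REST and PEG10 were chosen by name, through the gene symbol that the platform annotation gives each probe set, out of 19775 named genes. All 9 were found, by 34 of the 54675 probe sets. They were measured in C4-2B-MDVR, a human prostate cancer cell line resistant to the antiandrogen enzalutamide and selected from C4-2B by long culture with the drug, and in C4-2B, its enzalutamide-sensitive parent. Neither line was treated before RNA was taken, the culture medium with serum was the same for both, and each is a single line measured on 1 Affymetrix array. The study asked which genes lie behind the resistance. The free-text description of the C4-2B-MDVR sample names a docetaxel-resistant line, TaxR, while its title, source and cell line labels name C4-2B-MDVR. The cell line label was followed here.

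In adenocarcinoma cells the androgen receptor keeps luminal genes on. Tumours that escape androgen receptor inhibitors can lose this program and switch on neuronal and secretory genes instead. REST binds a DNA element known as RE1 near many neuronal genes and recruits corepressors to silence them. SRRM4 is a splicing factor that alters REST transcripts towards a truncated form with little repressor activity. INSM1, FOXA2, POU3F2 (also called BRN2), ONECUT2, SOX2 and MYCN are DNA-binding factors linked to neuroendocrine prostate cancer, and PEG10 is an imprinted gene derived from a retrotransposon whose protein is raised in that disease.

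Of the 9 regulators 4 could be read above the detection floor, and 0 of these 4 were 2-fold or more apart between the lines. Of all 13437 genes above that floor, 3.17% were 2-fold or more higher in C4-2B-MDVR and 3.50% 2-fold or more lower. The floor is the median log2 intensity of each array, 5.44 for C4-2B-MDVR and 5.39 for C4-2B, and a gene is above it when its brighter value is. It is not a detection call, so a value above it does not by itself show that a gene is expressed. The 4 were ONECUT2, MYCN, REST and PEG10. The other 5, INSM1, FOXA2, POU3F2, SOX2 and SRRM4, were under the floor on both arrays, so a 2-fold difference could not be read for them, and PEG10, under it in C4-2B, has only a lower bound. The median difference of the 4 was 0.04 on the log2 scale, C4-2B-MDVR minus C4-2B, and the median of all genes above the floor was also 0.04. With PEG10 taken at its bound, because its C4-2B value was under the floor, the median of the 4 was -0.09. With 1 array per line there is no replicate spread, so no difference below has a p-value or an error. The small number of arrays sets the precision.

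**Figure D1:**
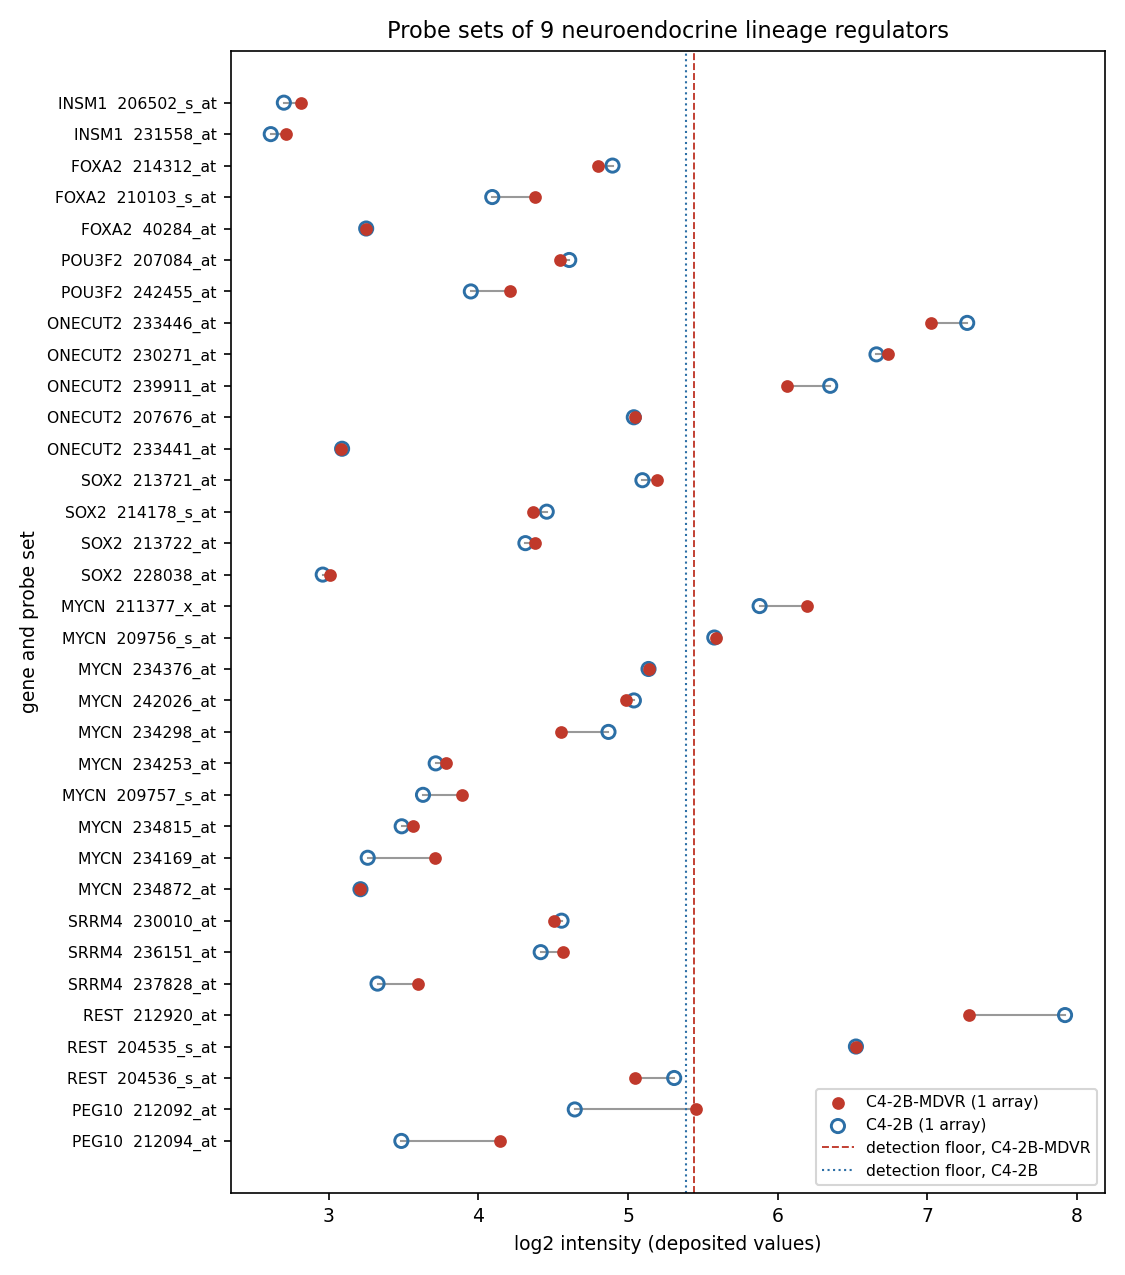
Log2 intensity of each of the 34 probe sets of the 9 regulators on the C4-2B-MDVR array (filled) and the C4-2B array (open), 1 array each, with a grey line joining the 2 values and vertical lines at the floors of 5.44 and 5.39. Of the 34 probe sets 26 lie left of the floors, and the widest gaps are those of PEG10 and of 1 REST probe set.

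Luminal epithelial transcripts were read on both arrays. HOXB13, a homeobox factor of prostate epithelium, had an intensity of 1950 in C4-2B-MDVR and 1879 in C4-2B in its brightest probe set. Its other probe set had 1592 and 994, a difference of 0.68. Keratin KRT18 had 4038 in C4-2B-MDVR and 4337 in C4-2B. Markers of fibroblasts, blood, endothelium and basal cells had 0 members of 14 that were 2-fold or more apart in the probe set with the highest mean, and 8 of the 14 were under the floor. Their median difference over the 6 above it was -0.03. Among these 6, the T cell gene CD3E had 73.6 in C4-2B-MDVR and 69.9 in C4-2B, and the endothelial gene VWF 73.6 and 80.4. The regulator MYCN, at 73.4 and 58.9 in its brightest probe set, was no brighter. The count of 0 depends on the probe set for the fibroblast collagen COL1A1, which was counted at -0.23, while 2 other probe sets above the floor had 116 and 105 in C4-2B-MDVR and 55.4 and 45.7 in C4-2B, differences of 1.07 and 1.20. Their part in the other results was not tested. The luminal genes KLK3 (172 in C4-2B-MDVR and 8379 in C4-2B) and KLK2 (295 and 1263), both driven by the androgen receptor, differed by -5.61 and -2.10 on the log2 scale. They were the 2 genes beyond 2-fold in a list of 6 luminal and tumour suppressor genes, all above the floor, with a median of -0.57. For comparison, 3.50% of the 13437 genes read over the floor passed 2-fold downward and 3.17% upward. This list too was drawn up with earlier results known, so its count of 2 describes the 6 genes only. This count depends on the probe set for the forkhead factor FOXA1, which was counted at -0.08. Its other probe set above the floor had 163 in C4-2B-MDVR and 370 in C4-2B, a difference of -1.18. Over probe sets above the floor, KLK3 ran from -6.24 to -0.35 and KLK2 from -2.37 to -0.88. In RNA of whole cultures, fewer cells that make a transcript and less transcript per cell cannot be told apart.

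INSM1, FOXA2, POU3F2 and SOX2 gave no signal above the floor in either line. INSM1, a zinc finger factor of endocrine and neuronal precursors, had its 2 probe sets at 7.03 and 6.56 in C4-2B-MDVR and 6.49 and 6.11 in C4-2B. FOXA2, a forkhead pioneer factor of endoderm that is largely absent from prostate adenocarcinoma, had its brightest probe set at 27.9 in C4-2B-MDVR and 29.8 in C4-2B. Its 3 probe sets differed by between -0.09 and 0.29, all under the floor. A value under the floor carries no order, so these small differences do not rank the lines.

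POU3F2, a POU-domain factor of the nervous system, had 23.3 in C4-2B-MDVR and 24.4 in C4-2B in its brighter probe set. In the dimmer one it had 18.6 and 15.4. SOX2, a stem cell and neural progenitor factor, had 36.6 in C4-2B-MDVR and 34.2 in C4-2B in its brightest probe set. Its 4 probe sets lay between -0.09 and 0.10, all under the floor.

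ONECUT2, a cut-homeobox factor reported to oppose androgen receptor signalling, was above the floor in both lines and differed little. Its brightest probe set, 233446_at, had 130.1 in C4-2B-MDVR and 154 in C4-2B, a difference of -0.24. The probe set 239911_at had 66.7 and 81.7, a difference of -0.29, and 230271_at had 107 and 101, a difference of 0.08. So 2 of the 3 probe sets above the floor were lower in C4-2B-MDVR and 1 was higher, a span of 0.37. Differences of at least the size of -0.24 were found for 49.5% of all genes above the floor.

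MYCN, the MYC family member amplified in neuroblastoma and in part of neuroendocrine prostate cancers, was read by 10 probe sets, of which 2 were above the floor. The brightest, 211377_x_at, had 73.4 in C4-2B-MDVR and 58.9 in C4-2B, a difference of 0.32. The x in its name marks probes that can bind several transcripts. The other, 209756_s_at, had 48.1 and 47.7, a difference of 0.01. Of the 8 under the floor the differences ran from -0.32 to 0.45, and 234376_at had the same value of 35.2 on both arrays, as did 194 probe sets of the whole table. The 0.32 of the brightest probe set was thus not seen in the second one above the floor.

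SRRM4, the neural splicing factor that acts on REST, was under the floor in all 3 probe sets. The brightest by mean had 22.7 in C4-2B-MDVR and 23.5 in C4-2B. The next had 23.7 and 21.4, and the third 12.1 and 10.0. The array reads summed transcript signal per probe set, so the truncated REST isoform was not analysed here.

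REST, the neural repressor, had the lowest difference of the 4 above the floor, and its probe sets did not give 1 answer. The brightest, 212920_at, had 156 in C4-2B-MDVR and 242 in C4-2B, a difference of -0.64 or 1.56-fold lower. The second, 204535_s_at, was level, with 92.1 and 92.0. The third, 204536_s_at, was under the floor, with 33.0 and 39.6. The 2 probe sets above the floor were 0.64 apart in their differences. Over the 6261 genes with 2 or more probe sets above the floor the median span was 0.34, and 23.0% had a span at least as wide as that of REST. A difference as large as -0.64 in size was found for 15.1% of all genes above the floor.

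PEG10 had the highest measured difference of the 4, at the edge of what the array could read. Its brighter probe set, 212092_at, had 43.8 in C4-2B-MDVR, just above the floor, and 25.004 in C4-2B, under it, a difference of 0.81. The other, 212094_at, had 17.7 and 11.2, both under the floor, a difference of 0.66. With both its values under the floor, 212094_at does not rank the lines. Taken against the C4-2B floor, PEG10 was at least 1.04-fold higher, so the measured 1.75-fold rests on a C4-2B value with no order. A difference as large as the measured 0.81 was found for 9.82% of all genes above the floor. At its bound, 0.06, PEG10 was under the 0.064 of DDC, a size that 84.8% of these genes reached.

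**Figure D2:**
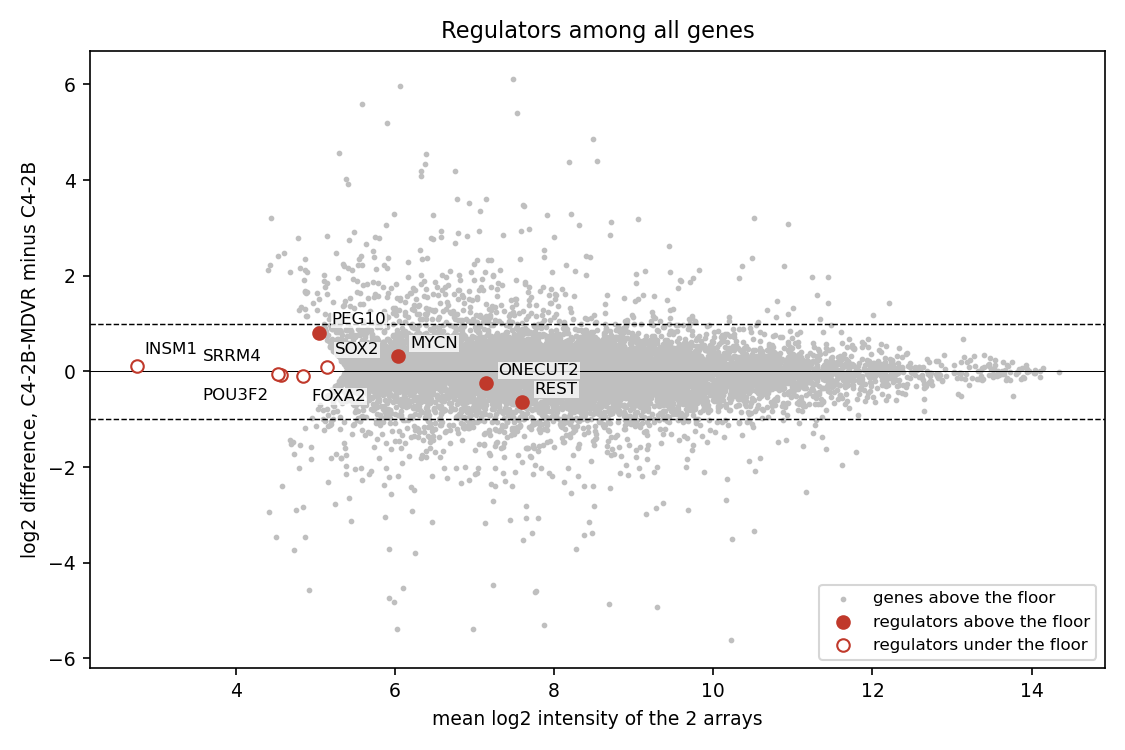
Difference in log2 intensity, C4-2B-MDVR minus C4-2B, against the mean log2 intensity of the 2 arrays for all 13437 genes above the floor (grey), with the regulators above the floor filled and those under it open; dashed lines mark 2-fold. The 4 filled points lie between the dashed lines, from REST at -0.64 to PEG10 at 0.81, and the 5 open points carry no order.

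At a threshold of 1.5-fold on measured values, PEG10 counted as higher and REST as lower, 1 of the 4 regulators above the floor in each direction. At its bound of 1.04-fold PEG10 did not pass 1.5-fold, and the REST call rests on 1 of its 2 probe sets above the floor. Of all genes above the floor, 8.26% passed 1.5-fold higher and 9.32% passed 1.5-fold lower.

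REST acts through corepressors and is removed by the ubiquitin ligase subunit BTRC. Of 14 such genes, all above the floor, 0 were 2-fold or more apart and the median difference was 0.13. The values ran from -0.45 for the corepressor RCOR1 (346 in C4-2B-MDVR and 472 in C4-2B) to 0.71 for BTRC (113 and 68.8). Both genes had probe sets of opposite sign, from -0.45 to 0.37 for RCOR1 and from -0.20 to 0.71 for BTRC.

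Among genes that REST represses outside the nervous system, 10 of the 12 above the floor were above 0 and 2 were below 0. Of all genes above the floor 44.8% were below 0. Above the floor were 12 of 21 such genes, with a median of 0.14. Among the 10 above 0, TUBB3 (0.010), CHRNB2 (0.024) and SNAP25 (0.036) were under the median of all genes, 0.041. GRIN1, counted at 0.22, had 4 probe sets above 0 and 1 at -0.44. TUBB3, CHRNB2, SNAP25 and GRIN1 were named after their values were seen. In C4-2B-MDVR 2 of the 12 were at least 2-fold higher and 0 at least 2-fold lower. Out of 13437 genes read over the floor on the array, 3.17% passed this threshold upward and 3.50% downward. The list was chosen with earlier results of these data known, so its counts describe the listed genes only. Whether genes repressed by REST are raised as a group was not tested. BEX1, a small adaptor protein of neurons, had 1938 in C4-2B-MDVR and 66.7 in C4-2B, a difference of 4.86. SYT4, a synaptotagmin of secretory vesicles, had 1716 and 80.9, a difference of 4.41. Each was read by 1 probe set and was above the floor on both arrays.

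Among the other 10, CPLX1, which regulates vesicle fusion, had 57.6 in C4-2B-MDVR and 31.3 in C4-2B, a difference of 0.88. Its C4-2B value was under the floor, and against that floor it was at least 1.38-fold higher. SYN1, a synaptic vesicle phosphoprotein, had 154 in C4-2B-MDVR and 97.0 in C4-2B, a difference of 0.67. VGF, a secreted neuropeptide precursor, had 62.9 and 91.1, a difference of -0.53. The 2 genes below 0 were VGF and synaptophysin SYP, which was at -0.35 with its C4-2B-MDVR value under the floor. The receptor subunit GRIA2 was under the floor on both arrays. These 5 genes were named after their values were seen.

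The letters of the RE1 element were then looked for in these genes, because REST was the regulator with the lowest difference. The half-sites CAGCACC and GGACAG, 2 bases apart in that order, were compared on both strands of RefSeq promoter windows (GRCh38.p14), which run from 250 bases before to 50 after a gene's start. Of all 35116 windows 0.225% matched 12 or 13 of the 13 letters, and the median best match was 9. Of the 15 listed genes with a window, 3 matched 12 or 13 in their best window. Some genes had several windows, and the list was made of genes repressed by REST. The count of genes is therefore not comparable with the share of all windows. The best matches of those 3 and of BEX1 and SYT4 are shown because they set the genes with the fullest element beside the genes with the largest differences. Capitals mark letters equal to the half-sites.
GRIA2, chr4:157220392-157220406, minus strand: CAGCACCgaGGACAG
SYN1, chrX:47620074-47620088, minus strand: CAGCACCgcGGACAG
VGF, chr7:101165561-101165575, plus strand: CAGCACgctGGACAG
BEX1, chrX:103064332-103064346, minus strand: ggGCACCgcGcACAG
SYT4, chr18:43277599-43277613, minus strand: aAGCAagaaGGAaAG

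GRIA2 and SYN1 matched all 13 letters and VGF 12, while BEX1 matched 10 and SYT4 9. Of the 3 genes with the fullest match, GRIA2 was under the floor, SYN1 differed by 0.67 and VGF by -0.53, so the 2 above it were of opposite sign and within 2-fold. BEX1 and SYT4, which were far higher, had matches within 1 letter of the median window. A match is a description of letters, and bases outside these windows were not looked at. Windows were available for 6 of the 9 regulators, and their best matches ran from 8 to 10 letters. The SYN1 window is given in full to show where the element, in capitals, lies before the gene's start.
SYN1 promoter window, chrX:47619808-47620107, minus strand: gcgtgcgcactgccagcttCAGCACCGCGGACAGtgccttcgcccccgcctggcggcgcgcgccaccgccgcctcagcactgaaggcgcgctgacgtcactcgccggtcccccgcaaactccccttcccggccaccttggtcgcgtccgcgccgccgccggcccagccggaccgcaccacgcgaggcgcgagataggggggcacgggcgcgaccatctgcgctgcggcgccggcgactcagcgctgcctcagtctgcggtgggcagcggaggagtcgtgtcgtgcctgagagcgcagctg

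Other splicing factors of neurons had no common direction. Of 14 such genes 12 were above the floor, 6 above 0 and 6 below 0, with a median of 0.05. NOVA1, a neuronal RNA-binding protein, was the 1 gene 2-fold or more apart. It had 32.2 in C4-2B-MDVR, under the floor, and 178 in C4-2B, a difference of -2.47 and at least 4.10-fold lower. Its other 2 probe sets were under the floor on both arrays.

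Further transcription factors of neuroendocrine and neural cells numbered 19, with 11 above the floor and a median of 0.18. HES6, which opposes the Notch effector HES1 and promotes neuronal differentiation, had 271 in C4-2B-MDVR and 590.0 in C4-2B, a difference of -1.12. HES1, named after its values were seen, had 376 and 214, a difference of 0.81. NKX2-2, a homeobox factor of neural and endocrine progenitors, had 54.8 in C4-2B-MDVR and 24.3 in C4-2B, a difference of 1.17. Its C4-2B value was under the floor, so against that floor NKX2-2 was at least 1.31-fold higher.

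Among 14 relatives of the regulators by gene family, 7 were above the floor, with a median of 0.29. SOX9, a factor of the same SOX family as SOX2 that acts in prostate epithelium, stood out. It had 233 in C4-2B-MDVR and 34.0 in C4-2B, a difference of 2.77, and its second probe set had 93.6 and 13.5, a difference of 2.80. Both C4-2B values were under the floor, so against that floor SOX9 was at least 5.56-fold higher. ONECUT3, named after its values were seen, was at 0.32. SOX2 and SOX9 thus differed in what the arrays could read, since SOX2 had no probe set above the floor in either line.

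Genes that work with MYCN or lie beside PEG10 held 0 of 9 beyond 2-fold, with a median of -0.15. The shares beyond 2-fold over all genes above the floor were 3.17% higher and 3.50% lower. MXI1, which competes with MYC proteins for their partner MAX, had 1651 in C4-2B-MDVR and 895 in C4-2B, a difference of 0.88. EZH2, the histone methyltransferase associated with the neuroendocrine state, had 429 and 667, a difference of -0.63. SGCE, the imprinted gene next to PEG10, was under the floor on both arrays, at 18.8 and 15.8. MXI1, EZH2 and SGCE were named after their values were seen.

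Neuroendocrine markers numbered 14. The 8 above the floor had a median of 0.07. Of these, 5 were above 0 and 3 below 0. The 3 were SYP (-0.35), DLL3 (-0.29, with probe sets from -0.29 to 0.39) and UCHL1 (-0.03), named after their values were seen. In C4-2B-MDVR 2 of the 8 were at least 2-fold higher and 0 at least 2-fold lower. The shares over all genes above the floor were 3.17% and 3.50%. The marker list was also chosen with earlier results known, so its counts describe the listed genes only. ENO2, the neuronal enolase, had 231 in C4-2B-MDVR and 33.2 in C4-2B. NTS, which encodes neurotensin, had 142 and 36.4. Both C4-2B values were under the floor, so against it ENO2 was at least 5.52-fold and NTS at least 3.39-fold higher. CHGA, the granule protein chromogranin A, gave 17.5 in C4-2B-MDVR and 17.4 in C4-2B, under both floors.

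**Figure D3:**
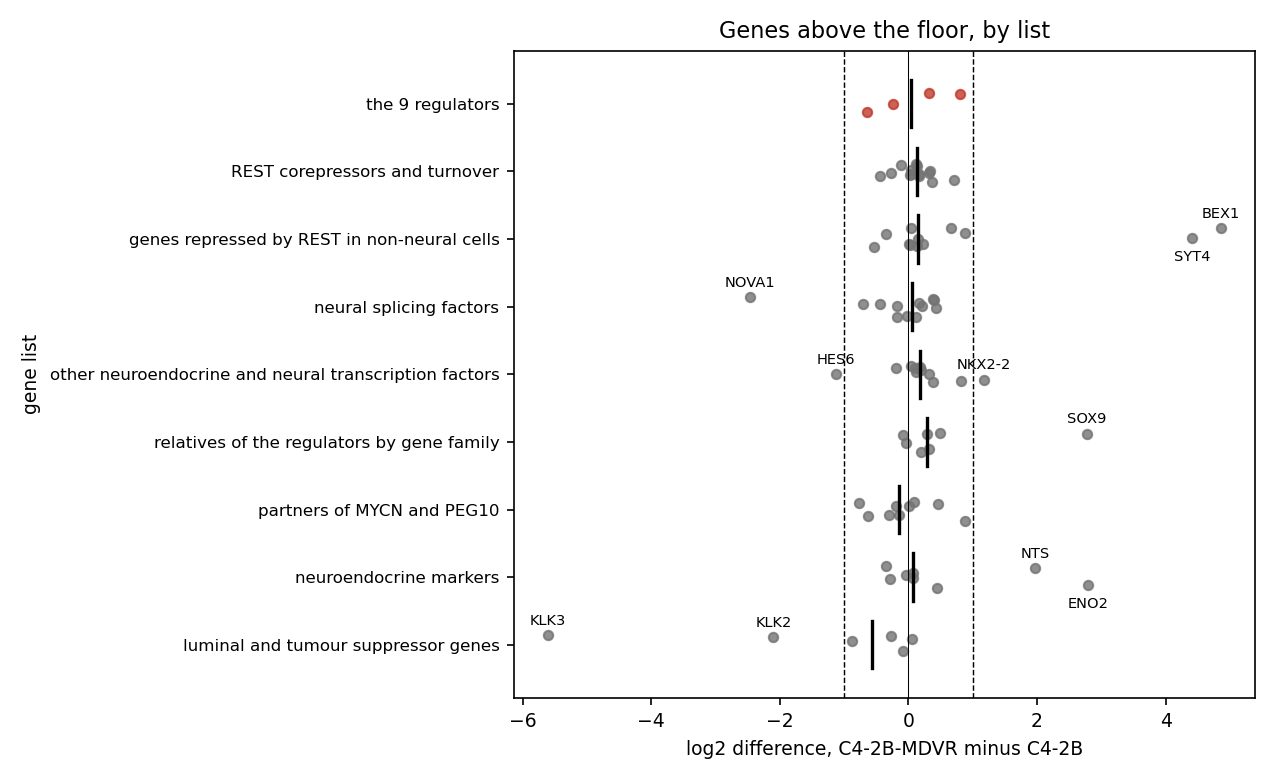
Differences in log2 intensity, C4-2B-MDVR minus C4-2B, of the genes above the floor in each list (points, spread vertically for visibility), with list medians as black bars and dashed lines at 2-fold; genes beyond 2-fold are named. The 4 regulators lie within the dashed lines, and list medians from the regulators to the neuroendocrine markers lie between -0.15 and 0.29.

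The 4 regulators above the floor were last set beside their chromosomal neighbours, the 5 nearest protein-coding genes with a value above the floor on each side in RefSeq order. ONECUT2 lies on chromosome 18, where 9 of its 10 neighbours were below 0, with a median of -0.59. Among them MALT1 had 219 in C4-2B-MDVR and 436 in C4-2B, and ATP8B1 had 169 and 312. ONECUT2 at -0.24, in its brightest probe set, was less far below 0 than 8 of the 10. Its probe set 230271_at, also above the floor, was at 0.08, higher than the highest neighbour at 0.004. Over the 171 genes above the floor on chromosome 18 the median was -0.22 and 66.1% were below 0, while 44.8% of all genes were.

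In its brightest probe set REST, on chromosome 4, was lower than 9 of its 10 neighbours, whose median was -0.04. The other, HOPX, had 34.8 in C4-2B-MDVR, under the floor, and 66.0 in C4-2B, and is at least 1.52-fold lower, so its order with REST cannot be read. The REST probe set 204535_s_at, also above the floor, was at 0.002, above the median of the neighbours, so the rank depends on the probe set. Over 420 genes of chromosome 4 the median was -0.11 and 59.3% were below 0. Over the 546 genes above the floor on chromosome 7 the median was 0.04 and 47.6% were below 0. The neighbours of PEG10, on that chromosome, had a median of -0.18. At its measured value PEG10 was higher than all 10, but at its bound, a difference of 0.06, it was higher than 8 and lower than PON2 (0.09) and ASNS (0.11). In its brightest probe set MYCN, on chromosome 2, was higher than 8 of 10, with TRIB2 (269 in C4-2B-MDVR and 70.1 in C4-2B) the neighbour beyond 2-fold. The MYCN probe set 209756_s_at, also above the floor, was at 0.01. Over the 785 genes above the floor on chromosome 2 the median was 0.04 and 45.0% were below 0. Gene copy number was not measured, and its part in these values was not tested.

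**Figure D4:**
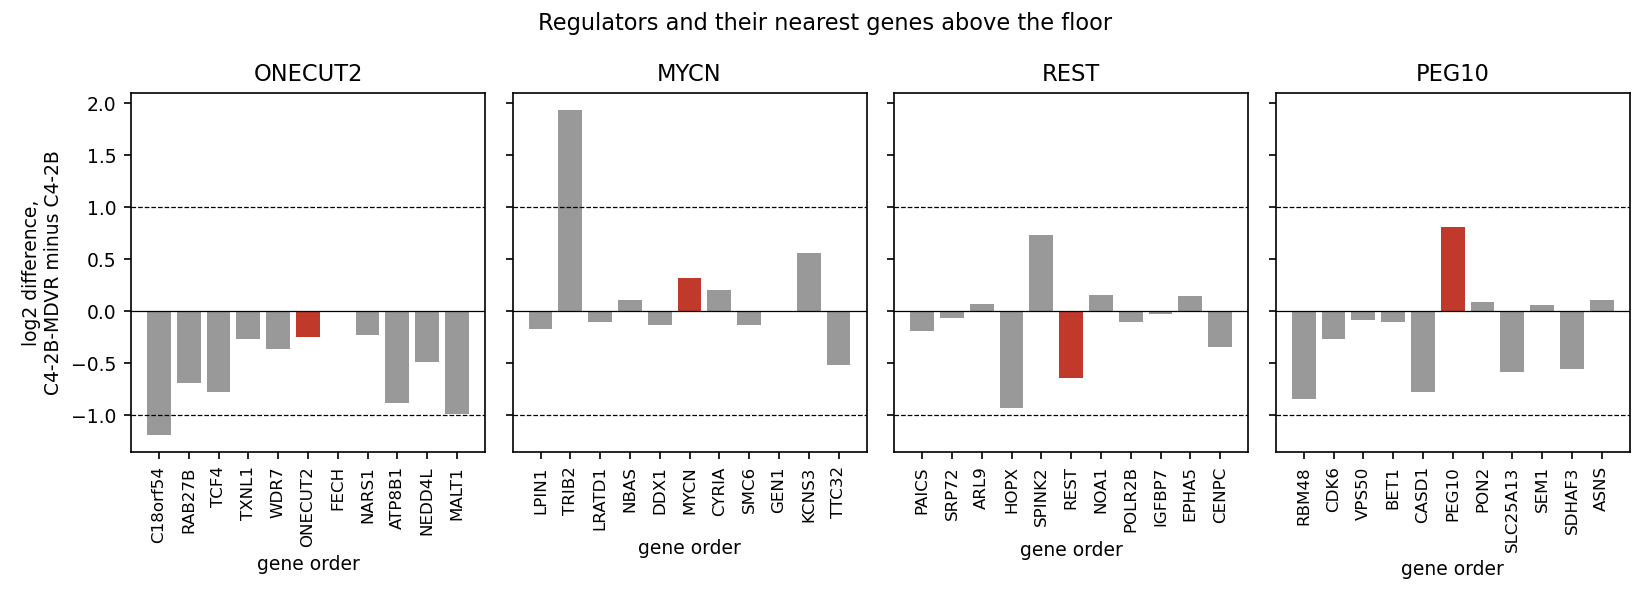
Difference in log2 intensity, C4-2B-MDVR minus C4-2B, of ONECUT2, MYCN, REST and PEG10 (red) and of the 5 nearest protein-coding genes above the floor on each side (grey), in chromosome order, with dashed lines at 2-fold. Bars around ONECUT2 point down for 9 of 10 neighbours, while the PEG10 bar, at 0.81, rests on a C4-2B value under the floor and is 0.06 at its bound.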

How the data were processed

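Total RNA of 1 C4-2B-MDVR and 1 C4-2B sample was amplified, labelled with biotin and measured on Affymetrix arrays, per the labels. The authors deposited intensity values on a linear scale. How they corrected background, normalized and summarized probes is not given in the sources used here. Further scaling was not applied before log2. Gene names came from the 2016 platform annotation and Entrez identifiers were checked against RefSeq (GRCh38.p14), where 41043 of 41097 single-symbol probe sets matched. The probe set with the highest mean stood for a gene. The table has no detection calls, so the floor is each array's median. Where the dimmer value was under its floor, the bound ("at least") is taken against that floor.

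The members and gene lists were chosen with earlier results of these data known. Of each list the up to 6 genes with the largest absolute difference of 2-fold or more were named, and others were named after their values were seen. Some listed genes are not analysed here. Neighbours and promoter letters were examined after the data were seen. On simulated data with planted changes larger than the threshold, only the 2-fold call was checked. The bounds, neighbour ranks and promoter letters were not checked in this way. Python 3.11.15, numpy 2.4.6, pandas 2.3.3 and statsmodels 0.14.6 were used.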

Additional observations from a re-analysis of the deposited data

How the results depend on the processing

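The count of regulators 2-fold or more higher and the count 2-fold or more lower were 0 under median centring, quantile normalization, loess, averaging of probe sets, use of the probe set with the largest difference, no floor, a floor at the 25th percentile or one at the 75th, values raised to the floor, probe sets with several symbols, and a threshold of 3-fold. At 1.5-fold the counts were 1 higher and 1 lower. The median difference of the regulators was -0.20 with the mean of probe sets and -0.44 with a floor at the 75th percentile, and in each case 2 regulators, ONECUT2 and REST, were left above the floor. Values raised to the floor brought PEG10 to 0.06, and the mean of probe sets brought REST to -0.30, which took in a probe set under the floor, and MYCN to 0.08. Over all alternatives REST ran from -0.69 to -0.30 and ONECUT2 from -0.30 to -0.09. In none of them did the REST probe set 204535_s_at or the ONECUT2 probe set 230271_at stand alone for its gene. Both are above the floor, at 0.002 and 0.08, so these ranges do not cover every choice of probe set. FOXA2, POU3F2 and SRRM4, under the floor, changed sign with the probe set used. Under the other scalings the median over all genes lay between -0.01 and 0.06. Over all genes, 426 were 2-fold or more higher and 470 lower. These counts were 293 and 302 with the mean of probe sets, where fewer genes were above the floor, 280 and 359 with a floor at the 75th percentile, and 521 and 739 with the probe set of the largest difference. At 1.5-fold they were 1110 and 1252, and at 3-fold 195 and 161. No paired analysis was possible because each line has 1 array. Signal under the floor limits 5 of the 9 regulators on both arrays and PEG10 in C4-2B, and no replicate gives the spread.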
